A study of Mus musculus with 6 samples.

Results

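Pluripotency network genes are the transcription factors, chromatin proteins, RNA-binding proteins and enzymes that mark embryonic stem cells and the cells of the early embryo. A list of 32 such genes was followed here by symbol, and all 32 were found among the 23406 gene symbols of the deposited tables, each on 1 row. The cells were mouse embryonic fibroblasts carrying OSKM, the factors Oct4, Sox2, Klf4 and Myc that turn fibroblasts into induced pluripotent stem cells, sampled at day 7 of reprogramming. Total RNA was sequenced after removal of ribosomal RNA, and the values are FPKM, a level per transcript length and per library total.

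The 6 libraries fall into 4 groups, and all carried at least 1 floxed allele of Adar, the gene for the RNA-editing enzyme ADAR1. KO is Adar1 Fl/Fl with 4-hydroxytamoxifen (4OHT, n = 2), and WT is Adar1 Fl/Fl with vehicle (n = 2), so WT carries the floxed alleles too. MUT is Adar1 Fl/E861A with 4OHT (n = 1), and HET is Adar1 Fl/E861A with vehicle (n = 1); E861A is known to abolish editing. 4OHT is the usual inducer of a Cre recombinase that removes floxed sequence, but the labels name no Cre driver and no deleted exons. No library with 4OHT and intact Adar was analysed here, so effects of 4OHT or Cre and of loss of Adar cannot be told apart. Adar stood at 34.2 and 31.3 FPKM in the libraries labelled KO, against 19.6 and 19.5 FPKM in WT, and at 33.0 FPKM in MUT, against 17.0 FPKM in HET. Loss of a few exons need not lower the level of the gene as a whole, so Adar does not check the labels, on which KO and MUT are taken as given. Whether the paired libraries came from separate cultures is not labelled, so the p-values cover no more than the spread between these libraries, and that spread may be technical.

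As background, the network is built around Oct4, Sox2 and Nanog, which bind their own genes and each other's, with auxiliary factors such as Esrrb, Sall4, Klf2, Klf5 and Tfcp2l1 that hold mouse embryonic stem cells in the naive state. During reprogramming its genes come on in an order: fibroblast genes go down and alkaline phosphatase appears early, Nanog, Sall4 and Esrrb follow, and genes such as Utf1, Lin28a, Dppa2 and Dppa4 come late. Bulk RNA averages over cells that reprogram and cells that do not, and in such samples fewer cells of a type and less RNA per cell cannot be told apart.

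Promoter sequence is shown for the members that hold a full Oct4 octamer or the joint Oct4 and Sox2 element in the 250 bases before their start, because Oct4 and Sox2 are among the introduced factors. RefSeq (GRCm38.p6) gave a promoter for 20 of the 32 members, and 17 were searched, those whose RefSeq start is also the edge of the deposited gene row. The joint element, searched on both strands as TTTGCAT, any base and ACAATG in a row, stood in Nanog at bases -75 to -62 from the start, and in no other gene of 27025 searched. The octamer ATGCAAAT stood in Zfp42 at bases -186 to -179, in Zfp296 at bases -111 to -104, and in 1.60% of 32851 promoters. In the sequences below, written 5′ to 3′ on the gene's strand, capitals mark the element; in Zfp42 and Zfp296 it is read on the other strand.
Nanog, GRCm38 chr6:122707239-122707488, plus strand: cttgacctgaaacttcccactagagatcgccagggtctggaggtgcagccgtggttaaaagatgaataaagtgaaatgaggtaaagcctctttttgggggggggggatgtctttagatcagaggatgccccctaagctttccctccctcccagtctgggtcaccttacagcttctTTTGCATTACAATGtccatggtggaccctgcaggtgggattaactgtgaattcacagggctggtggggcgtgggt
Zfp42, GRCm38 chr8:43307010-43307259, minus strand: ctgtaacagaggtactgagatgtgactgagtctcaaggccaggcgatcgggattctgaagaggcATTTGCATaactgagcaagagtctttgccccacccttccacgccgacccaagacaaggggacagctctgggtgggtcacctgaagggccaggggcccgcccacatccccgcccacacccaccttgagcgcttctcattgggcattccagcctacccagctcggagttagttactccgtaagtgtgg
Zfp296, GRCm38 chr7:19577037-19577286, plus strand: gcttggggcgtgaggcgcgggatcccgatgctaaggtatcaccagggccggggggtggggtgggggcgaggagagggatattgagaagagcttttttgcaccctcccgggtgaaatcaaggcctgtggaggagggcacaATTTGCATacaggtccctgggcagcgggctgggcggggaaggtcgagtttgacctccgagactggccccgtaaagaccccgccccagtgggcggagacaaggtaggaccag
The shorter Klf core CCACCC stood in 8 of the 17 members and 28.1% of promoters. The Sox core ACAATG stood in 2, Nanog (inside the joint element) and Lin28a, and in 10.7% of promoters. The Esrrb site AAGGTCA stood in 0 of the 17, and in 4.08% of promoters. A match is only a description of these letters in this window. The 3 genes with an octamer or joint element did not respond alike: the KO level was 0.901% of the WT level for Nanog, 4.62% for Zfp42 and 39.6% for Zfp296.

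KO was set against WT to ask how these genes fare without ADAR1 while fibroblasts are reprogrammed. Of 29 members that could be tested, 26 fell in KO, 2 rose (Klf5 and Spp1) and Tbx3 was not called (limma on log2(FPKM + 1), adjusted p under 0.05 over 12266 genes). Across all genes tested, 28.2% were called lower, 29.5% higher and 57.7% in either direction. The median log2 difference of the tested members was -2.37, against 0.02 over all genes tested. Members were tested only at 1 FPKM or more in at least 2 libraries, and 17 of the 29 stood under 1 FPKM in every KO and MUT library. Those 17 passed only through the vehicle libraries, so they could only be lower, and the count and the median describe the list and test nothing about it. Without a test, KO lay wholly below WT in 29 of the 32 members, against 38.0% of all genes tested, and wholly above it in 2, against 40.9%. The remaining member, Fut4, overlapped.

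**Figure D1:**
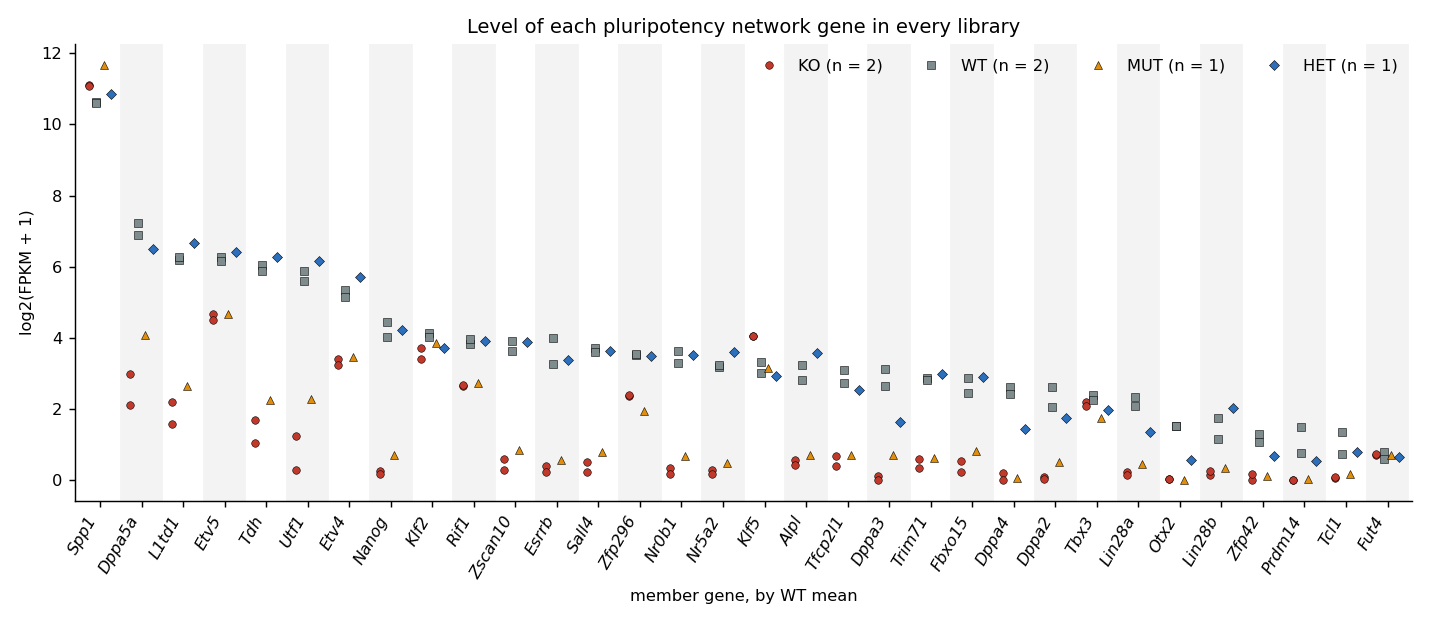
Level of each of the 32 members as log2(FPKM + 1), members ordered by WT mean, with 1 point per library (KO circles, WT squares, MUT triangles, HET diamonds). KO points lie below WT points for 29 members, above for Klf5 and Spp1, and among them for Fut4.

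Of the 16 transcription factors on the list, 15 were tested; 13 fell in KO, Klf5 rose and Tbx3 was not called. Nanog, a core factor of the network (GRCm38 chr6:122707489-122714633), had 0.204 and 0.120 FPKM in KO, against 20.8 and 15.2 FPKM in WT, and 0.620 FPKM in MUT, against 17.7 FPKM in HET. Every vehicle library was thus above 15 FPKM and every 4OHT library under 1 FPKM. The log2 difference of KO from WT was -4.02 (SE 0.15, limma adjusted p = 1.7e-08), the largest fall among the transcription factors tested.

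Esrrb, an orphan nuclear receptor that can stand in for Nanog in mouse stem cells, had 0.314 and 0.177 FPKM in KO, against 15.1 and 8.67 FPKM in WT, and 0.483 FPKM in MUT, against 9.38 FPKM in HET. The WT libraries of Esrrb differed by 1.74-fold, far less than the distance of either from KO. Sall4, a zinc finger protein that works with Oct4 and Nanog, had 0.427 and 0.181 FPKM in KO, against 12.2 and 11.3 FPKM in WT, and 0.729 FPKM in MUT, against 11.4 FPKM in HET. Log2 differences of KO from WT were -3.33 for Esrrb (SE 0.20, limma adjusted p = 3.81e-07) and -3.29 for Sall4 (SE 0.13, adjusted p = 2.51e-08).

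Other factors with the same arrangement were Zscan10, a zinc finger partner of Oct4 and Sox2, Nr0b1 (Dax1), an orphan nuclear receptor, and Nr5a2 (Lrh1), a nuclear receptor able to replace Oct4 in reprogramming. Zscan10 had 0.509 and 0.213 FPKM in KO, against 14.1 and 11.5 FPKM in WT, a log2 difference of -3.34. Nr0b1 had 0.275 and 0.137 FPKM in KO, against 11.5 and 8.73 FPKM in WT, a log2 difference of -3.19. Nr5a2 had 0.221 and 0.125 FPKM in KO, against 8.16 and 8.39 FPKM in WT, a log2 difference of -2.98. In all of them the KO libraries were under 1 FPKM and the WT libraries above 8 FPKM. Tfcp2l1, a naive-state factor downstream of LIF signalling, had 0.598 and 0.317 FPKM in KO, against 7.62 and 5.66 FPKM in WT, and fell by 2.39 on the log2 scale.

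Zfp42 (Rex1), a classical marker of naive cells, was low throughout, with 0 and 0.119 FPKM in KO, against 1.09 and 1.48 FPKM in WT, and 0.0780 FPKM in MUT, against 0.618 FPKM in HET. Only the WT libraries reached 1 FPKM, and the log2 difference of -1.11 (limma adjusted p = 0.000124) understates the change of a gene so low. Otx2, a factor of the primed state that follows the naive one, had 0.0246 and 0.0264 FPKM in KO, against 1.87 and 1.88 FPKM in WT, and fell by 1.49 on the log2 scale. Prdm14, which represses germ layer and methylation genes in naive cells, was listed at 0 in both KO libraries, against 1.81 and 0.713 FPKM in WT, and stood at 0.0282 FPKM in MUT, against 0.462 FPKM in HET. It did not reach the level for a test. Of 3986 genes at 20 FPKM or more in at least 4 libraries, 0 were listed at 0 in another.

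The ETS factors Etv4 and Etv5, targets of FGF and ERK signalling, were high in WT and kept part of that level in KO. Etv4 had 9.61 and 8.51 FPKM in KO, against 39.9 and 34.3 FPKM in WT, and 10.05 FPKM in MUT, against 51.5 FPKM in HET. Etv5 had 24.7 and 21.6 FPKM in KO, against 76.6 and 70.3 FPKM in WT, and 24.4 FPKM in MUT, against 84.7 FPKM in HET. Log2 differences of KO from WT were -1.92 for Etv4 (limma adjusted p = 2.87e-07) and -1.63 for Etv5 (adjusted p = 5.67e-07), and no 4OHT library reached a vehicle library. Zfp296, a zinc finger protein that raises reprogramming efficiency, had 4.13 and 4.25 FPKM in KO, against 10.5 and 10.7 FPKM in WT, a log2 difference of -1.16.

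The Krüppel-like factors and Tbx3 behaved differently from the rest. Klf2, one of the naive-state Klf proteins, had 12.2 and 9.60 FPKM in KO, against 16.6 and 15.4 FPKM in WT, and 13.5 FPKM in MUT, against 12.2 FPKM in HET. Its log2 difference of KO from WT was -0.52 (SE 0.12, limma adjusted p = 0.00401), while MUT lay above HET. Klf5, which with Klf2 and Klf4 holds the naive state and is also a factor of epithelia, had 15.5 and 15.6 FPKM in KO, against 9.05 and 7.15 FPKM in WT, and 7.98 FPKM in MUT, against 6.63 FPKM in HET. KO alone was high, and the log2 difference from WT was 0.87 (SE 0.12, limma adjusted p = 0.000124). Tbx3, a T-box factor also used in limb and other tissues, had 3.57 and 3.26 FPKM in KO, against 4.21 and 3.82 FPKM in WT, a log2 difference of -0.18 (SE 0.11, limma adjusted p = 0.193). Without a filter on low values, which puts 23406 genes into the fit, Klf2 and Klf5 were not called (limma adjusted p = 0.136 for Klf2 and 0.0526 for Klf5).

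The epidermal markers Krt5, Krt14, Trp63, Krt1 and Krt10 summed to 4.09 and 5.33 FPKM in KO, against 10.6 and 11.1 FPKM in WT. That fall, opposite in direction to Klf5, was mostly Krt14, with 1.58 and 1.90 FPKM in KO, against 6.93 and 7.64 FPKM in WT. Krt10 had 2.33 and 3.29 FPKM in KO, against 2.86 and 2.81 FPKM in WT. These 2 were tested, and only Krt14 fell. Trophoblast markers, a tissue that uses Esrrb, Sall4 and Tbx3, summed to 3.92 and 3.86 FPKM in KO, against 3.31 and 3.53 FPKM in WT, and to 0.837 FPKM in MUT, against 2.70 FPKM in HET. Of 5 trophoblast markers 2 were tested: Hand1 rose in KO and Eomes was not called. Hand1 had 2.83 and 2.61 FPKM in KO, against 1.11 and 1.23 FPKM in WT. It stood at 0 FPKM in MUT and 0.0600 FPKM in HET. Eomes, Elf5, Ascl2 and Cdx2 went the other way, lower in both KO libraries than in either WT library. The defining gene Cdx2 was under 0.1 FPKM in every library. Markers of extraembryonic endoderm, which also uses Sall4, summed to 3.25 and 2.60 FPKM in KO, against 2.26 and 2.37 FPKM in WT, with Sox17 and Afp at 0 in all 6 libraries; the 1 of 6 that was tested, Gata6, rose.

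All 6 members of the chromatin and Dppa group fell in KO. Utf1, a chromatin-bound protein of pluripotent cells, had 1.38 and 0.212 FPKM in KO, against 58.0 and 47.4 FPKM in WT, and 3.90 FPKM in MUT, against 71.0 FPKM in HET. The log2 difference of KO from WT was -4.98 (SE 0.25, limma adjusted p = 9.43e-08), the largest fall among the members tested. The KO libraries of Utf1 stood 6.51-fold apart, the widest split between them among members with a value above 0 in each, and yet both were far below WT. Dppa5a, an RNA-binding protein of the stem cell cytoplasm named with the Dppa genes, had 6.91 and 3.34 FPKM in KO, against 149.9 and 118 FPKM in WT, and 15.9 FPKM in MUT, against 89.9 FPKM in HET, a log2 difference of KO from WT of -4.51.

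Dppa2 and Dppa4 encode partner proteins that bind chromatin together, and their genes lie next to each other on chromosome 16, 15981 bases apart. Dppa2 had 0.0555 and 0.0288 FPKM in KO, against 5.12 and 3.13 FPKM in WT, and 0.415 FPKM in MUT, against 2.35 FPKM in HET. Dppa4 had 0.159 and 0 FPKM in KO, against 5.15 and 4.35 FPKM in WT, and 0.0508 FPKM in MUT, against 1.69 FPKM in HET. For both genes HET stood below both WT libraries. Dppa3 (Stella), which protects methylation in the early embryo, ends 77217 bases before Nanog starts on chromosome 6. It had 0.0816 and 0 FPKM in KO, against 7.68 and 5.27 FPKM in WT, and 0.649 FPKM in MUT, against 2.11 FPKM in HET. The log2 differences of KO from WT were -2.27 for Dppa2, -2.41 for Dppa4 and -2.83 for Dppa3. Rif1, a telomere and replication-timing protein that stem cells express strongly, kept more, with 5.30 and 5.38 FPKM in KO, against 13.3 and 14.7 FPKM in WT, a log2 difference of -1.24.

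Dppa3 and Prdm14 are also genes of germ cells. The summed level of the germ cell markers Ddx4, Dazl, Mael and Tdrd1 was 0.627 and 0.756 FPKM in KO, against 4.34 and 4.35 FPKM in WT, and 2.39 FPKM in MUT, against 2.75 FPKM in HET. Ddx4 made up nearly all of it and was the 1 marker tested, which fell in KO; Dazl, Mael and Tdrd1 were at 0.0888 FPKM or less in every library. The part of germ cell genes in these results was not tested.

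The 4 RNA-binding members all fell. L1td1, an RNA-binding protein derived from a LINE-1 element, had 3.56 and 2.001 FPKM in KO, against 72.7 and 75.7 FPKM in WT, and 5.28 FPKM in MUT, against 99.8 FPKM in HET. Its log2 difference of KO from WT was -4.35 (SE 0.16, limma adjusted p = 2.12e-08). Lin28a, which blocks maturation of the let-7 microRNA, had 0.165 and 0.111 FPKM in KO, against 4.02 and 3.26 FPKM in WT, and 0.373 FPKM in MUT, against 1.58 FPKM in HET. Lin28b, its paralog, had 0.118 and 0.189 FPKM in KO, against 1.25 and 2.38 FPKM in WT, and 0.267 FPKM in MUT, against 3.12 FPKM in HET. The paralogs thus differed in the vehicle libraries: HET was below both WT libraries for Lin28a and above both for Lin28b. Trim71, a let-7 target that acts as a ubiquitin ligase and mRNA repressor, had 0.512 and 0.263 FPKM in KO, against 6.27 and 6.02 FPKM in WT. The log2 differences of KO from WT were -2.02 for Lin28a, -1.26 for Lin28b and -2.37 for Trim71. Lin28b was not called without a filter on low values (limma adjusted p = 0.0830).

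A last group of 6 holds enzymes, secreted and signalling proteins and the marker Fbxo15; 4 were tested, of which 3 fell and Spp1 rose. Tdh, the threonine dehydrogenase on which mouse stem cells depend, had 2.24 and 1.07 FPKM in KO, against 65.8 and 57.9 FPKM in WT, and 3.74 FPKM in MUT, against 76.5 FPKM in HET, with a log2 difference of KO from WT of -4.60 (SE 0.18, limma adjusted p = 2.31e-08). Alpl, the tissue-nonspecific alkaline phosphatase used to stain reprogrammed colonies, had 0.479 and 0.347 FPKM in KO, against 8.35 and 5.99 FPKM in WT, and 0.642 FPKM in MUT, against 10.8 FPKM in HET. Fbxo15, an F-box protein whose locus served as the reporter in the first reprogramming screens, had 0.444 and 0.173 FPKM in KO, against 6.35 and 4.48 FPKM in WT. The log2 difference of KO from WT was -2.52 for Alpl and -2.29 for Fbxo15. Fut4, which makes the SSEA-1 surface sugar, had 0.639 and 0.677 FPKM in KO, against 0.743 and 0.509 FPKM in WT, and 0.624 FPKM in MUT, against 0.586 FPKM in HET. It was under 1 FPKM in all 6 libraries and was not tested. Tcl1, a cofactor of the kinase Akt, had 0.0480 and 0.0549 FPKM in KO, against 1.57 and 0.676 FPKM in WT, and was not tested either.

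Spp1 encodes osteopontin, a secreted phosphoprotein of bone and macrophages whose gene carries an Oct4 and Sox2 response element. It was the most abundant member by FPKM, with 2193 and 2161 FPKM in KO, against 1596 and 1560 FPKM in WT, and 3273 FPKM in MUT, against 1836 FPKM in HET. Every 4OHT library was above every vehicle library. The log2 difference of KO from WT was 0.46 (SE 0.10, limma adjusted p = 0.00286), but Spp1 was no longer called when WT 1 (adjusted p = 0.0660), WT 2 (adjusted p = 0.0831) or the filter on low values (adjusted p = 0.223) was left out.

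Bone and macrophage markers were set beside Alpl and Spp1. The osteoblast markers Runx2, Sp7, Bglap, Ibsp, Dmp1 and Phex summed to 11.5 and 9.53 FPKM in KO, against 13.1 and 12.8 FPKM in WT, and to 11.1 FPKM in MUT, against 12.4 FPKM in HET. Most of that sum was Runx2, with 10.6 and 9.21 FPKM in KO, against 8.25 and 7.81 FPKM in WT. Runx2 had 10.2 FPKM in MUT, against 7.41 FPKM in HET, so it went opposite to the sum. Phex had 0.225 and 0.233 FPKM in KO, against 3.64 and 3.98 FPKM in WT, and Dmp1 was also lower in KO. Of the 6, Runx2 and Phex were tested, and only Phex was called, as lower. Sp7, which defines osteoblasts, was at 0.164 FPKM or less in every library. The macrophage markers with a row of their own, Ptprc, Csf1r, Adgre1 and Tyrobp, summed to 2.68 and 2.29 FPKM in KO, against 2.09 and 1.52 FPKM in WT, and to 3.62 FPKM in MUT, against 5.46 FPKM in HET. Of the 4, Tyrobp was tested; it was not called in KO against WT, and it was called higher in HET against WT, with a log2 difference of 1.26. Ptprc was at 0.0800 FPKM or less in every library. The part of bone or macrophage genes in the levels of Alpl and Spp1 was not tested.

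Fibroblast markers moved both ways in KO and proliferation markers fell. The 7 fibroblast markers, a sum made up mostly of Col1a1 and Col1a2, summed to 760 and 655 FPKM in KO, against 2333 and 2043 FPKM in WT, and to 1521 FPKM in MUT, against 2576 FPKM in HET; 4 fell in KO, Prrx1 and Twist2 rose and Thy1 was not called. The 6 proliferation markers, among them Mki67 and Ccnb1, summed to 57.4 and 50.8 FPKM in KO, against 277 and 301 FPKM in WT, and to 105 FPKM in MUT, against 405 FPKM in HET, and all 6 fell in KO. The part of either in the levels of the pluripotency genes was not tested.

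The level left after 4OHT was read as KO in percent of WT for the 31 members with a WT mean of at least 1 FPKM. The median was 3.83%, against 100% over all genes with that WT level, and 23 of the 31 were below 10%. The share of all genes below 10% is not given here. Members entered by their WT level, the group where most of them are high. The median and the count therefore describe the list and test nothing about it. The members fell into separate ranges: the 23 ended with Lin28b at 8.47%, and the next was Etv4 at 24.4%, followed by Etv5 at 31.5%, Rif1 at 38.1% and Zfp296 at 39.6%. Klf2 (68.1%), Tbx3 (85.0%), Spp1 (138%) and Klf5 (192%) closed the order. The lowest values above 0 were those of Dppa3 at 0.630% and Nanog at 0.901%. All 8 members above 10% had at least 3 FPKM in each KO library, whereas Utf1, Tdh, L1td1 and Dppa5a were the only members below 10% with any KO library above 1 FPKM.

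**Figure D2:**
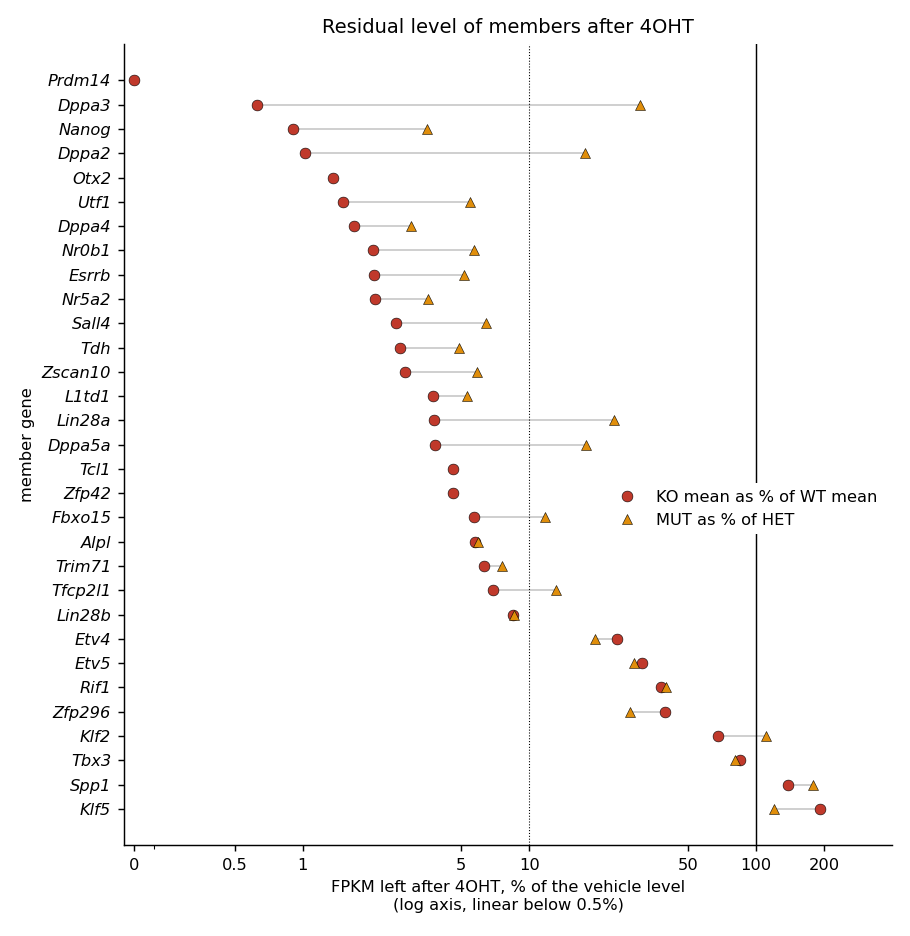
Level after 4OHT as percent of the vehicle level for the 31 members with a WT mean of at least 1 FPKM, on a log axis that is linear below 0.5%. Circles are KO means over WT means, triangles are MUT over HET where HET is at least 1 FPKM (27 members); the gap between Lin28b (8.47%) and Etv4 (24.4%) in KO is visible, as is the distance between triangle and circle for Dppa3, Dppa2, Lin28a and Dppa5a.

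Members were also grouped by when they usually appear in reprogramming: Fbxo15, Alpl and Fut4 as early, Nanog, Sall4, Esrrb, Tdh and Zfp296 as middle, and Zfp42, Dppa2, Dppa3, Dppa4, Dppa5a, Utf1, Lin28a, Tcl1, Prdm14 and Zscan10 as late. The KO level in percent of WT had a median of 5.73% in the 2 early members with a WT level of 1 FPKM, 2.59% in the 5 middle and 2.25% in the 10 late members. The values ran from 5.71% to 5.76% in the early members, from 0.901% to 39.6% in the middle and from 0 to 4.62% in the late members. By KO means, both early members thus kept a larger share than any late member, but both were under 1 FPKM in KO. In KO 2 alone this order did not hold. There the late Zfp42 had 0.119 FPKM, against a WT mean of 1.29 FPKM. The early Fbxo15 had 0.173 FPKM in KO 2, against a WT mean of 5.41 FPKM. The 14 members put in no stage, which hold Klf2, Klf5, Tbx3, Rif1, Etv4, Etv5 and Spp1, had a median of 16.4% and ranged from 1.36% to 192%. No test of the stages was made.

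Libraries of 1 group differed in these genes mostly in one direction. KO 1 was above KO 2 in 23 of 32 members (71.9%), against 44.5% of all genes tested. The median ratio was 1.48 in the 29 members above 0 in KO 2. Among the 23 members below 10% of WT, KO 1 was above KO 2 in 18, with a median ratio of 1.83 in the 20 above 0 in KO 2. In the vehicle cells, WT 1 was above WT 2 in 25 of 32 members (78.1%), against 44.1% of all genes tested, with a median ratio of 1.20. With KO 1 alone the median residual level was 4.53%, and with KO 2 alone 3.06%.

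**Figure D3:**
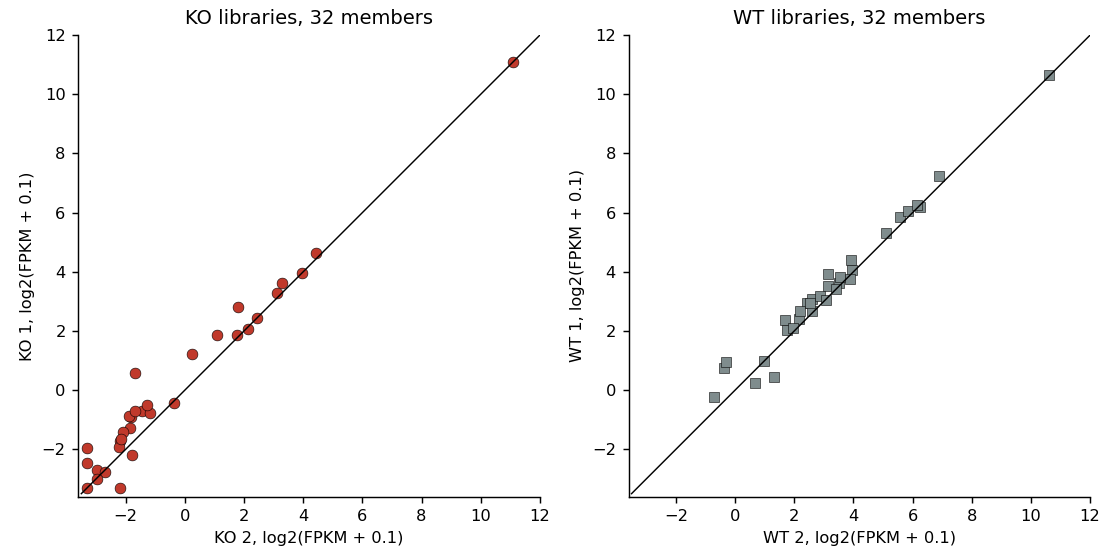
Level of each of the 32 members as log2(FPKM + 0.1), KO 1 against KO 2 in one panel and WT 1 against WT 2 in the other, 1 point per member, with a line at equal levels. More members lie above the line than below it, 23 of 32 for KO and 25 of 32 for WT.

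MUT against HET asks what happens when only the E861A allele is left, which encodes a protein without editing activity. With a single library per group, the values are linear FPKM ratios without a test or a replicate check. Of the 27 members at 1 FPKM or more in either library, 23 were at least 2-fold lower in MUT, against 12.1% of 12309 genes. At least 2-fold higher were 0 of the 27, against 7.64%. Members under 1 FPKM in MUT, such as Nanog and Esrrb, entered only through HET and so could only be lower. Both counts therefore describe the list and test nothing about it. MUT stood below HET in 28 of all 32 members; the exceptions were Klf2, Klf5, Spp1 and Fut4. Utf1 had 3.90 FPKM in MUT, against 71.0 FPKM in HET, Nr5a2 had 0.3997 FPKM in MUT, against 11.2 FPKM in HET, and Zscan10 had 0.814 FPKM in MUT, against 13.8 FPKM in HET.

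The MUT level in percent of HET had a median of 11.7% over the 27 members with a HET level of at least 1 FPKM, against 98.4% over all genes at that level, and 13 of the 27 were below 10%. Here members entered by their HET level, and no share of all genes below 10% is given, so these values too describe the list only. With a HET level of at least 5 FPKM the median was 7.00%. With a HET level of at least 1 FPKM the median was 8.80% in the 2 early, 5.15% in the 5 middle and 17.6% in the 7 late members counted. The late Dppa2, Dppa3, Dppa4 and Lin28a had only 2.35, 2.11, 1.69 and 1.58 FPKM in HET and were under 1 FPKM in MUT. Of the late members at 5 FPKM or more in HET, Utf1 stood at 5.49%, Zscan10 at 5.89% and Dppa5a at 17.7%. The lowest were Dppa4 at 3.001% and Nanog at 3.51%, while the late members Dppa3 at 30.7%, Lin28a at 23.6%, Dppa5a at 17.7% and Dppa2 at 17.6% stood beside Rif1 at 40.02%, Etv5 at 28.9%, Zfp296 at 27.9% and Etv4 at 19.5%.

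MUT was then set against KO, with the lone MUT library assumed to vary like the WT and KO pairs. Of the 29 tested members 5 were higher in MUT, against 6.6% of all genes tested, and 1 was lower, against 4.72%. Dppa5a was higher by a log2 difference of 1.53 (SE 0.28, limma adjusted p = 0.00587), with 15.9 FPKM in MUT, against 6.91 and 3.34 FPKM in KO. For Utf1 the log2 difference was 1.53 (SE 0.30, limma adjusted p = 0.00884), with 3.90 FPKM in MUT, against 1.38 and 0.212 FPKM in KO. The others were Tdh, by 0.87 (adjusted p = 0.0274), L1td1, by 0.77 (adjusted p = 0.0353), and Spp1, by 0.59 (adjusted p = 0.0132). Klf5 was lower in MUT, with a log2 difference of -0.88 (SE 0.15, limma adjusted p = 0.00354), with 7.98 FPKM in MUT, against 15.5 and 15.6 FPKM in KO.

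Of the 23 members not called, 17 were under 1 FPKM in the MUT and both KO libraries. Without a test, MUT lay above both KO libraries in 24 of 32 members, against 34.6% of all genes tested, and below both in 5, against 44.7%. The log2 difference of Tdh was 0.55 and that of L1td1 0.46 when KO 2 was left out. Leaving out WT 1 or WT 2 ended the calls of L1td1 (adjusted p = 0.0570 and 0.0573) and of Spp1 (adjusted p = 0.0850 and 0.0861). Without KO 1 the count of higher members was 11, and without a filter on low values it was 0. The proliferation markers, at 105 FPKM in MUT, against 57.4 and 50.8 FPKM in KO, were also higher in MUT, in 6 of 6 tested. Fibroblast markers were called higher in 4 of 7, with a sum of 1521 FPKM in MUT, against 760 and 655 FPKM in KO, and the germ cell marker Ddx4 was higher, with a log2 difference of 1.09. The part of these lists in the members' differences was not tested.

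HET was set against WT to see the baseline of each allele background before 4OHT, with the same assumption for the lone HET library. Dppa3, Dppa4, Lin28a and Otx2 were lower in HET, 4 of 29 tested members, against 8.58% of all genes tested, and Etv4 was higher, against 5.27%. Dppa3 had 2.11 FPKM in HET, against 7.68 and 5.27 FPKM in WT, and was lower by a log2 difference of -1.24 (SE 0.20, limma adjusted p = 0.00275). Dppa4 had 1.69 FPKM in HET, against 5.15 and 4.35 FPKM in WT (log2 difference -1.09, adjusted p = 0.00269). Otx2 had 0.469 FPKM in HET, against 1.87 and 1.88 FPKM in WT (log2 difference -0.97, adjusted p = 0.00405), and Lin28a had 1.58 FPKM in HET, against 4.02 and 3.26 FPKM in WT (log2 difference -0.84, adjusted p = 0.00888). In each of these HET stood clear of both WT libraries. Otx2 reached 1 FPKM in the WT libraries alone and so entered the test through the group where it is high, and it could not have been called higher in HET. Etv4 had 51.5 FPKM in HET, against 39.9 and 34.3 FPKM in WT (log2 difference 0.47, adjusted p = 0.0480), a call lost without WT 1 (adjusted p = 0.0591) or WT 2 (adjusted p = 0.218). With a pseudocount of 0.1 only Dppa3 of these 5 was called, and without a filter on low values only Otx2.

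By stage, HET lay below both WT libraries in 7 of 10 late members, 1 of 5 middle members and 0 of 3 early members, and above both in 1 of 10, 1 of 5 and 2 of 3. Over all 32 members it was below both in 13, against 39.1% of all genes tested, and above both in 11, against 41.8%. HET in percent of WT was read for members with a WT mean of at least 1 FPKM. Its median was 52.6% in the 10 late, 97.2% in the 5 middle and 135% in the 2 early members, and 100% over all genes at that level. The late Zfp42, Tcl1 and Prdm14 reached 1 FPKM in WT alone and so entered through the group where they are high. The late members that did not follow were Utf1, with 71.0 FPKM in HET, against 58.0 and 47.4 FPKM in WT, and Zscan10 and Tcl1, whose HET level lay between the WT libraries. Most late members are low genes, and 1 HET library stands behind the whole pattern. The proliferation sum was 405 FPKM in HET, against 277 and 301 FPKM in WT, higher where the late members were lower, and its part was not tested.

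**Figure D4:**
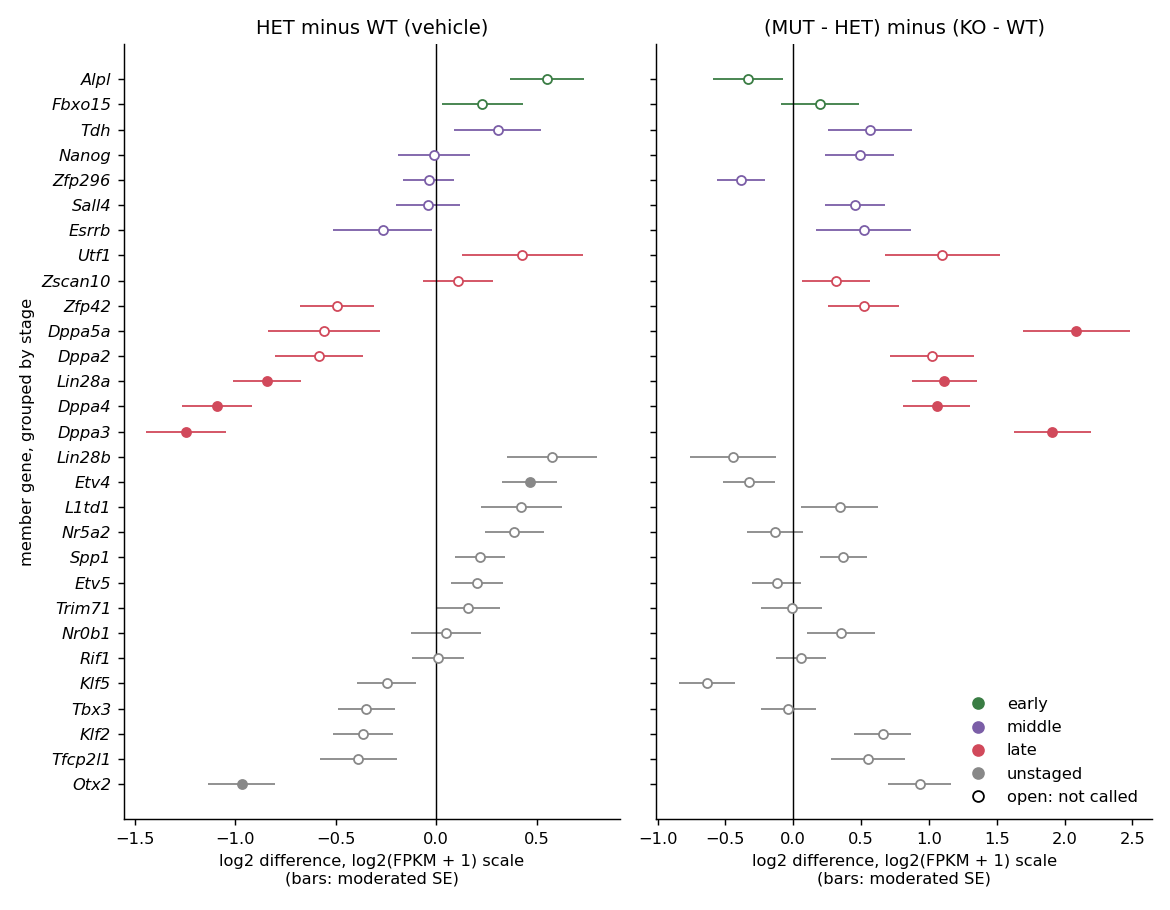
Log2 differences on the log2(FPKM + 1) scale for each tested member, HET against WT in one panel and the MUT effect minus the KO effect in the other, with bars for limma's SE, colours for the stage and filled points where the adjusted p is under 0.05. Dppa3, Dppa4, Lin28a and Otx2 lie at -0.84 or lower in HET, and Dppa3, Dppa4, Dppa5a and Lin28a lie at 1.06 or higher in the difference of effects.

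Whether 4OHT moved a member differently in the E861A and the floxed background was tested as the difference of effects, MUT minus HET less KO minus WT, on the log2(FPKM + 1) scale. Of the 29 tested members 4 were called, all positive, and 0 were negative; of all genes tested 3.07% were called positive, 0.946% negative and 4.01% either way. The difference was 2.09 for Dppa5a (SE 0.39, limma adjusted p = 0.0180), 1.91 for Dppa3 (SE 0.28, adjusted p = 0.00527), 1.11 for Lin28a (SE 0.24, adjusted p = 0.0307) and 1.06 for Dppa4 (SE 0.25, adjusted p = 0.0425). All 4 were lower in HET than in either WT library. Dppa3, Lin28a and Dppa4 were under 1 FPKM in every KO and MUT library, where a gene can fall on this scale by little more than its vehicle level, so a lower HET level alone gives them a positive difference. For Dppa4 the difference of 1.06 stood beside -1.09 in HET against WT and -0.04 in MUT against KO. Dppa5a, at 3.34 FPKM or more in every library, is the called member to which this does not apply, with -0.56 in HET against WT and 1.53 in MUT against KO. Their levels after 4OHT differed: MUT was above both KO libraries for Dppa5a, Dppa3 and Lin28a, but between them for Dppa4, at 0.0508 FPKM in MUT, against 0.159 and 0 FPKM in KO. Dppa4 was not called when WT 1 was left out (adjusted p = 0.0692) with a pseudocount of 0.1 (adjusted p = 0.418) or with quantile normalization (adjusted p = 0.0617), nor Dppa5a when WT 1 was left out (adjusted p = 0.0550). Without a filter on low values 0 of the 4 was called (adjusted p = 0.260 for Dppa3, 0.229 for Lin28a and 0.443 for Dppa5a). The germ cell marker Ddx4 had the same signs as Dppa3, with log2 differences of -0.52 in HET against WT, 1.09 in MUT against KO and 1.61 in the difference of effects, each of them called; its part was not tested. For the other 25 members the test called no difference, which does not show that the effects were alike.

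A further 26 genes of pluripotent cells outside the 32, among them Pou5f1, Sox2 and Klf4, were read as a second list; 25 had a row of their own and all 25 were tested. In KO 24 of them fell and Klf4 rose, with a median log2 difference of -2.72. The largest were Pou5f1, which encodes Oct4, with 8.03 and 2.50 FPKM in KO, against 222 and 175 FPKM in WT, Tdgf1, a Nodal co-receptor, with 4.27 and 1.22 FPKM in KO, against 120.2 and 102 FPKM in WT, and Epcam, a surface adhesion molecule, with 1.72 and 1.03 FPKM in KO, against 47.9 and 52.2 FPKM in WT. Their log2 differences were -5.14, -5.03 and -4.44. Introduced and endogenous Pou5f1, Sox2 and Klf4 cannot be told apart here. MUT against KO had 6 of the 25 higher and 1 lower, and HET against WT 3 higher and 4 lower. In the difference of effects 1 was called, Dnmt3l, a cofactor of DNA methylation, chosen for naming after its value was seen.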

How the data were processed

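TRIzol extraction and Ribo-Zero depletion preceded total RNA sequencing, per the labels' protocols. Per the file headers, the authors deposited FPKM for each gene row, with decimal commas. GRCm38 and, without roles, Cufflinks 2.2.1, TopHat2 2.1.1 and Bowtie2 2.3.0 come from the submitters' processing notes. Annotation, strand and scaling: not given in the sources used here; without strand, a gene and an overlapping or antisense partner are not resolved. Each file has 24879 rows; 1021 without a name were left out, and for 314 symbols on several rows the row of highest mean was kept. Depth is not stated: steps of low values gave rough estimates of 15600000 to 21100000 fragments per library, and no reads were recovered. Replicates had a Pearson r of 0.995 (KO) and 0.995 (WT) across 12266 genes.

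Tests used R 4.3.3 and limma 3.58.1 on log2(FPKM + 1) (moderated with a mean trend, two-sided, Benjamini-Hochberg adjusted over all 12266 genes at 1 FPKM or more in at least 2 of 6 libraries). For low genes this scale gives too small a fold. KO against WT used those 4 libraries; the other tests used 4 group means over 6 libraries. SEs are limma's moderated values. The fit was run on simulated data without the filter on low values. Changes were planted only in genes of higher WT level, so the run does not check the low genes.

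All 32 members are named; of the further pluripotency genes the 3 of largest log2 difference are named, and of each marker list the sums and the genes at 0, plus the defining genes quoted. The members, the stages, the lists and the tests were chosen with earlier results of these data known. Alternatives were another pseudocount, other filters, other scalings, summed rows, a fit on all 6 libraries, a replicate block and leaving out each KO and each WT library in turn. The lone MUT and HET libraries were never left out.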

Additional observations from a re-analysis of the deposited data

Results flagged for a closer look

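By the limma test of the difference itself on 6 libraries, with 1 library each for MUT and HET, the effect of 4OHT differed between the E861A and the floxed background in 4 of 29 tested members and in 1 of 25 further pluripotency genes, against 492 of 12266 genes tested (4.01%). The difference of log2 effects, MUT minus HET less KO minus WT, was 2.35 for Dnmt3l (limma adjusted p = 0.00456), which had 3.78 FPKM in MUT, against 10.995 FPKM in HET, and 0.8004 and 0.4195 FPKM in KO, against 24.5 and 15.3 FPKM in WT. It was 2.09 for Dppa5a, 1.91 for Dppa3, 1.11 for Lin28a and 1.06 for Dppa4, whose levels are given above. Without a filter on low values none of the 5 was called (adjusted p = 0.260 for Dppa3 and 0.316 for Dnmt3l). In all 5 genes HET was below both WT libraries, and in 4, all but Dppa4, MUT was above both KO libraries. For Dppa3, Lin28a and Dppa4, under 1 FPKM in every KO and MUT library, a lower HET level alone gives a positive difference on this scale. The germ cell marker Ddx4 was also called, at 1.61, and its part was not tested.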

How the results depend on the processing

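Of the values for single members in KO against WT, 340 under the alternatives kept direction and call and 6 lost the call. With no filter on low values limma called 4433 genes, against 7080, and 0 members higher in KO, 0 higher and 0 lower in MUT against KO, 0 higher and 1 lower in HET against WT, and 1 in the difference of effects (Otx2). With a pseudocount of 0.1, 9 members were higher and 2 lower in MUT against KO, and 0 higher and 1 lower in HET against WT; with quantile normalization 2 were lower in MUT against KO. Leaving out 1 library at a time gave 1 to 2 members higher in KO, 4 to 11 higher and 1 to 1 lower in MUT against KO, 1 to 5 higher and 4 to 7 lower in HET against WT, and 2 to 10 called in the difference of effects. In MUT against HET, with 1 library each and the spread taken from the WT and KO pairs, limma as an alternative called 25 members lower and 1 higher (Spp1), against 2740 lower and 2569 higher of 12266 genes. The 17 members under 1 FPKM in every KO and MUT library entered that fit only through the vehicle libraries. The median residual level in MUT was 7.00% with a HET level of 5 FPKM or more.

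The difference of effects changed sign for members that were not called. Leaving out 1 library at a time it ran from -0.013 to 0.41 for Fbxo15 (0.20 with all), -0.14 to 0.12 for Trim71 (-0.01), -0.093 to 0.020 for Tbx3 (-0.04) and -0.013 to 0.13 for Rif1 (0.06), and with a pseudocount of 0.1 it was 0.24 for Trim71 and 0.47 for Nr5a2 (-0.13). The cause was not tested. With a replicate block, 7959 genes were called in KO against WT, 26 members lower and 2 higher; same-numbered libraries correlated at 0.183 in their deviations, and the labels do not pair them. Levels near 0 FPKM carry few fragments, and the lone MUT and HET libraries have no replicate check.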
